A study of Rattus norvegicus with 6 samples.

Results

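The CYP4 family holds cytochrome P450 enzymes that put a hydroxyl group on the far end of a fatty acid chain. Here 7 rat genes of the family were followed, namely Cyp4a1, Cyp4a2, Cyp4a3, Cyp4a8, Cyp4b1, Cyp4f1 and Cyp4f4. They were chosen by name, through the RefSeq accession that the array gives for each probe, and 8 of the 30367 probes on the array carried them, 2 for Cyp4a8 and 1 for each of the others. RNA came from liver tissue blocks of 3 normal rats and of 3 rats whose livers had become fibrotic once the bile duct was tied off, and each animal had 1 single-colour Agilent array. Strain, age, sex and the time after ligation are not given in the sources used here, and both groups are whole liver tissue, so all liver cell types contributed to each value. Arrays are numbered 1 to 3 within a group in the order of the records, and a number never pairs arrays.

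Omega-hydroxylation takes place on the endoplasmic reticulum. The hydroxylated fatty acid is oxidised by alcohol and aldehyde dehydrogenases to a dicarboxylic acid, which peroxisomes then shorten, so the route serves as a side path to mitochondrial beta-oxidation. In rodent liver the CYP4A genes are textbook targets of PPAR-alpha, the nuclear receptor that senses fatty acids, and their products also hydroxylate arachidonic acid. CYP4F enzymes are known for the inactivation of leukotrienes and other eicosanoids, and CYP4B1 is best known from lung, where it activates some plant and industrial toxins.

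The RefSeq promoter sequences of the GRCr8 assembly covered 5 of the 7 members, namely Cyp4a2, Cyp4a3, Cyp4a8, Cyp4b1 and Cyp4f1. The 250 bases before the start of transcription are printed 5′ to 3′ for 4 genes. Cyp4a2 and Cyp4a3 are shown as neighbouring near-copies, and Cyp4f1 beside Cyp4f5, a family gene outside the members, as CYP4F genes that moved in opposite directions. Cyp4a2 lies on the minus strand at chr5:134170909-134171158, Cyp4a3 on the minus strand at chr5:134352237-134352486, Cyp4f1 on the minus strand at chr7:12672554-12672803 and Cyp4f5 on the plus strand at chr7:12194387-12194636. Capitals mark AGGTCA, the core element that many nuclear receptors recognise.
Cyp4a2: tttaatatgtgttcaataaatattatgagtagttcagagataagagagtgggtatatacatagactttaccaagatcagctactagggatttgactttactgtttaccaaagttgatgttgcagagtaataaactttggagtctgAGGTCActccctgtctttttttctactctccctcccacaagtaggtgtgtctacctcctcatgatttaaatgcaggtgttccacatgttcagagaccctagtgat
Cyp4a3: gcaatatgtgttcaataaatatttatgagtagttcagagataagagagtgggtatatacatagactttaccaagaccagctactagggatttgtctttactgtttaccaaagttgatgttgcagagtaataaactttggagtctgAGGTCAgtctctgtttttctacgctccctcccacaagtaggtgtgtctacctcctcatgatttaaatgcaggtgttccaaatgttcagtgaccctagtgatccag
Cyp4f1: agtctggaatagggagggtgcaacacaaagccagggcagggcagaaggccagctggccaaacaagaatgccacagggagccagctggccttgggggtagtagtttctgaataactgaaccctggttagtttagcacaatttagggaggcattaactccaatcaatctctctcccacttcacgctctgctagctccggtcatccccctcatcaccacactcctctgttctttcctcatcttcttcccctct
Cyp4f5: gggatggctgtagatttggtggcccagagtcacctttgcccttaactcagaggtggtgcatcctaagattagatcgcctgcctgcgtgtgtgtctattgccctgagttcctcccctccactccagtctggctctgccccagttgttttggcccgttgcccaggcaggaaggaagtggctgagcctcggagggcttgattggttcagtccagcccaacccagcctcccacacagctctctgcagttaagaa

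In a global alignment 236 of the 250 bases were identical between Cyp4a2 and Cyp4a3 (94.4%), and 214 (85.6%) between Cyp4a2 and Cyp4a2l1, a further copy beside them. The windows of Cyp4a2 and Cyp4a2l1 are offset against each other, with AGGTCA at bases -69 to -64 in Cyp4a2l1. All bases of the stretch these windows share are identical, so the 85.6% reflects the offset. AGGTCA was found on the gene's strand at bases -105 to -100 of both Cyp4a2 and Cyp4a3, and 14.1% of 33469 promoter windows of this length hold it on either strand. It was not in the windows of Cyp4a8, Cyp4b1, Cyp4f1 or Cyp4f5. The PPAR-type direct repeat, AGGTCA repeated after 1 base of any kind (0.0508% of windows), TATAAA (12.9%), the C/EBP motif TTGCNNAA (9.22%), the HNF4 motif CAAAGTCCA (0.338%) and the AP-1 motif TGANTCA (6.34%), each searched on both strands, were in none of the 5 member windows. A match or its lack describes these letters in this window only.

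The arrays differed in overall brightness. Normal arrays had a 75th percentile signal of 4016 ± 330 and fibrosis arrays one of 5453 ± 833 (SD, n = 3 each). Values below are log2 signals minus this percentile, so 0 stands for it. Levels of different probes are not compared, since each probe has its own brightness. Of 19731 probes tested, 2439 were higher (12.4%) and 1339 lower (6.79%) in fibrosis, 19.1% in all, and the median difference was -0.10. The balance moved with the scaling, to 1890 higher and 3884 lower with the array median, 2941 and 326 with E1A control probes and 6394 and 294 with hepatocyte markers, where the median difference was -0.45, 0.25 and 0.66. With 3 arrays a group, precision is limited by their number.

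CYP4 transcripts were lower in fibrotic liver for 4 of the 7 members, by 2.13-fold to 2.60-fold. Cyp4a1, Cyp4a2, Cyp4f1 and Cyp4f4 passed the test (limma with Benjamini-Hochberg adjustment over all 19731 probes, called at an adjusted p under 0.05). Cyp4a3, Cyp4a8 and Cyp4b1 did not, and 0 members rose, also at an unadjusted p under 0.05. Among 10864 genes represented by their brightest tested probe, 7.62% were called lower and 14.7% higher, 22.3% in all. All 8 member probes were well above background on all 6 arrays, so each was tested and none passed through 1 group only. Fibrosis and normal arrays did not overlap for 5 of the 8 probes, in each case with fibrosis below normal. Over all tested probes this held for 19.3% in that direction and for 19.1% with fibrosis above normal. In bulk tissue, fewer cells of a type and less RNA per cell cannot be told apart.

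**Figure D1:**
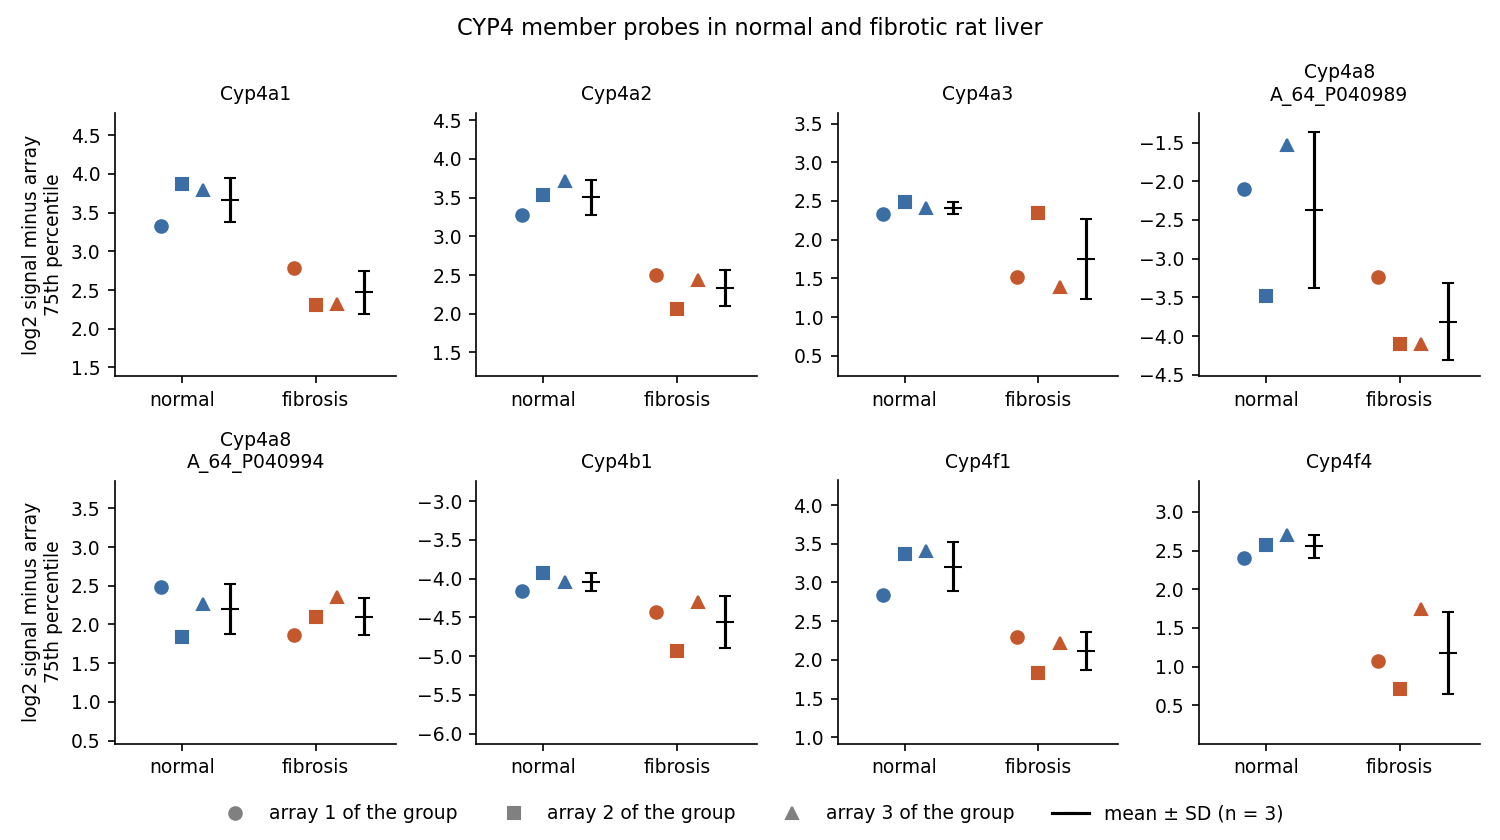
Log2 signal minus the array's 75th percentile (y axis) of the 8 member probes on each of the 3 normal (blue) and 3 fibrosis (red) arrays; marker shapes give the array number, black bars the mean and SD (n = 3), and every panel spans the same log2 range. Cyp4a1, Cyp4a2, Cyp4f1 and Cyp4f4 have all fibrosis arrays below all normal arrays, whereas fibrosis array 2 of Cyp4a3 stands at 2.35, beside the normal values.

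Cyp4a1, a lauric acid omega-hydroxylase induced by peroxisome proliferators, measured 3.33, 3.87 and 3.79 on normal arrays 1 to 3 and 2.79, 2.31 and 2.32 on fibrosis arrays 1 to 3. The groups did not overlap, and fibrosis array 1 came closest to the normal arrays. The group means were 3.66 ± 0.29 and 2.47 ± 0.28 (SD, n = 3), a difference of -1.19 ± 0.27 (SE, 95% confidence interval -1.81 to -0.58, limma adjusted p = 0.0170), or 2.28-fold lower.

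Cyp4a2 encodes a closely related enzyme that also uses arachidonic acid. Its probe measured 3.27, 3.53 and 3.72 on the normal arrays and 2.50, 2.07 and 2.43 on the fibrosis arrays. The groups did not overlap, and fibrosis array 2 was the lowest. The difference was -1.18 ± 0.25 (SE, 95% confidence interval -1.75 to -0.60, limma adjusted p = 0.0139), or 2.26-fold. Given the near-copies beside it, RNA of Cyp4a2, Cyp4a3 and Cyp4a2l1 may reach the same probe, and this was not tested because probe sequences are not used here. All 12 spots of the Cyp4a2 probe over the 6 arrays were marked as uneven or outlying by the scanner software. Of the other called members, Cyp4a1 had 9 of 12 marked, Cyp4f1 8 of 12 and Cyp4f4 48 of 60. The uncalled member probes had between 0 and 6 of 12 marked. The mean share of marked spots was 28.8% on normal and 27.0% on fibrosis arrays. With marked spots left out, Cyp4f4 passed, and Cyp4a1, Cyp4a2 and Cyp4f1 kept too few spots to be tested.

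Cyp4a3, the near-copy of Cyp4a2, measured 2.33, 2.48 and 2.41 on the normal arrays and 1.51, 2.35 and 1.39 on the fibrosis arrays. Fibrosis arrays 1 and 3 lay below the normal arrays and fibrosis array 2 within their range. The difference was -0.66 ± 0.30 (95% confidence interval -1.35 to 0.03, limma adjusted p = 0.175), which did not pass. Without fibrosis array 2 it was -0.96 and passed (limma adjusted p = 0.0294), as it did with the array median (-1.01, 0.0376) and with array weights (-0.84, 0.0102). These were the only 3 of 18 alternative runs in which Cyp4a3 passed. It did not pass with quantiles (-0.40, 0.375), cyclic loess (-0.34, 0.462) or E1A control probes (-0.31, 0.563), among others. Relative to hepatocyte markers the difference was 0.10. On fibrosis array 2 both spots of the probe were among those the scanner software marked as uneven or outlying, as they were on normal arrays 2 and 3. The part of these marks in the value was not tested.

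The probes of Cyp4a8 differed. Probe A_64_P040994 measured 2.48, 1.84 and 2.26 on normal and 1.86, 2.09 and 2.35 on fibrosis arrays, with full overlap and a difference of -0.09 ± 0.27 (95% confidence interval -0.71 to 0.53, limma adjusted p = 0.851). Scaling by quantiles (0.21), cyclic loess (0.23), E1A control probes (0.25) or hepatocyte markers (0.66) turned the difference positive. Probe A_64_P040989 measured -2.10, -3.48 and -1.53 on normal and -3.24, -4.10 and -4.11 on fibrosis arrays. Normal array 2 lay apart from the other normal arrays and below fibrosis array 1. The difference of -1.44 ± 0.50 did not pass (limma adjusted p = 0.0835), passed without normal array 2 (adjusted p = 0.0193), with the array median (-1.80, 0.0270) and with quantiles (-1.71, 0.0498), and was the largest of the 8 probes in size. The difference between the probes changed from -4.57 ± 0.77 in normal to -5.92 ± 0.72 in fibrotic liver (SD, n = 3, A_64_P040989 minus A_64_P040994), which an exact permutation test over arrays did not separate (two-sided p = 0.20).

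Cyp4b1 measured -4.16, -3.93 and -4.04 on normal and -4.43, -4.94 and -4.30 on fibrosis arrays. The groups did not overlap, normal array 1 and fibrosis array 3 being nearest to each other. The difference of -0.51 ± 0.26 did not pass (95% confidence interval -1.10 to 0.08, limma adjusted p = 0.213), passed with the array median (-0.87, 0.0429) and was 0.24 relative to hepatocyte markers.

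Cyp4f1 and Cyp4f4 encode enzymes that hydroxylate leukotrienes and arachidonic acid. Cyp4f1 measured 2.84, 3.37 and 3.40 on normal and 2.29, 1.83 and 2.22 on fibrosis arrays. All fibrosis arrays were below all normal arrays. The difference was -1.09 ± 0.27 (SE, 95% confidence interval -1.71 to -0.48, limma adjusted p = 0.0246), or 2.13-fold.

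Cyp4f4 was measured by 10 spots per array, the most of any member, and their SD on an array was between 0.054 and 0.189. Its values were 2.40, 2.57 and 2.70 on normal and 1.07, 0.71 and 1.75 on fibrosis arrays. The fibrotic livers were all lower and spread wider, at 1.18 ± 0.53 against 2.56 ± 0.15 (SD, n = 3). The difference of -1.38 ± 0.31 (95% confidence interval -2.09 to -0.67, limma adjusted p = 0.0166) was the largest among the called members, at 2.60-fold. Over all members the SD between spots of a probe on 1 array had a median of 0.11 and reached 0.47, for Cyp4f1 on normal array 2.

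Changes of the members were compared with each other as ratios within an array, which scaling by 1 factor per array does not alter. Of 28 pairs of probes, 6 had ratios that did not overlap between the groups. The share over all pairs of tested probes was not computed, so this count is no result about the members. Each of the 6 pairs had an exact two-sided permutation p of 0.10, the smallest that 3 arrays against 3 allow, and an adjusted p of 0.467 over the 28 pairs. Cyp4a2 minus Cyp4a8 (A_64_P040994) went from 1.31 ± 0.46 in normal to 0.23 ± 0.35 in fibrotic liver (SD, n = 3), and this Cyp4a8 probe minus Cyp4f4 from -0.36 ± 0.41 to 0.93 ± 0.41. The other 4 pairs set Cyp4b1 against Cyp4a1, Cyp4a2, Cyp4f1 and Cyp4f4, with Cyp4b1 changing less by 0.58 to 0.87. Signals of Cyp4b1 were low, between 158 and 297, and the part of this in its smaller change was not tested. Cyp4a1 and Cyp4a2 kept nearly the same ratio, 0.16 ± 0.16 in normal and 0.14 ± 0.22 in fibrotic liver. Cyp4a2 minus Cyp4a3 changed by -0.52 with overlap (exact two-sided permutation p = 0.40, adjusted p = 0.589), which did not separate their changes. Cyp4a2 and Cyp4f1 differed by 0.31 ± 0.14 and 0.22 ± 0.01.

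How many members passed depended on the scaling and on single arrays. In these counts each member stands by its brightest probe, which for Cyp4a8 is A_64_P040994. Probe A_64_P040989 of Cyp4a8, which passed with quantile normalization (limma adjusted p = 0.0498), is therefore not counted. The differences of Cyp4a1, Cyp4a2, Cyp4f1 and Cyp4f4 stayed below 0 under each alternative run in which they had a value. With the array median, 6 of the 7 members passed. With quantile normalization or cyclic loess 0 passed (limma, 5 lower at an unadjusted p under 0.05 in each), with E1A control probes 0 passed (2 at an unadjusted p under 0.05), and relative to hepatocyte markers 0 passed (0 at an unadjusted p under 0.05). Without normal array 2 or 3 all 4 calls were lost, with limma adjusted p between 0.0624 and 0.107 and between 0.0807 and 0.122, and 4 members lower at an unadjusted p under 0.05 each time. Cyp4f1 also lost its call without fibrosis array 2 (0.0513) or without a filter on dim probes (0.0560), and Cyp4f4 without fibrosis array 1 (0.0532). Of the 6 arrays, the 3 normal arrays and fibrosis array 1 lay in 1 row of the slide and fibrosis arrays 2 and 3 in the other. Within the first row, which is what a fit with the row as a block also gives, Cyp4a1 differed by -0.87, Cyp4a2 by -1.01, Cyp4f1 by -0.91 and Cyp4f4 by -1.49, and 0 passed (limma, 3 lower at an unadjusted p under 0.05).

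**Figure D2:**
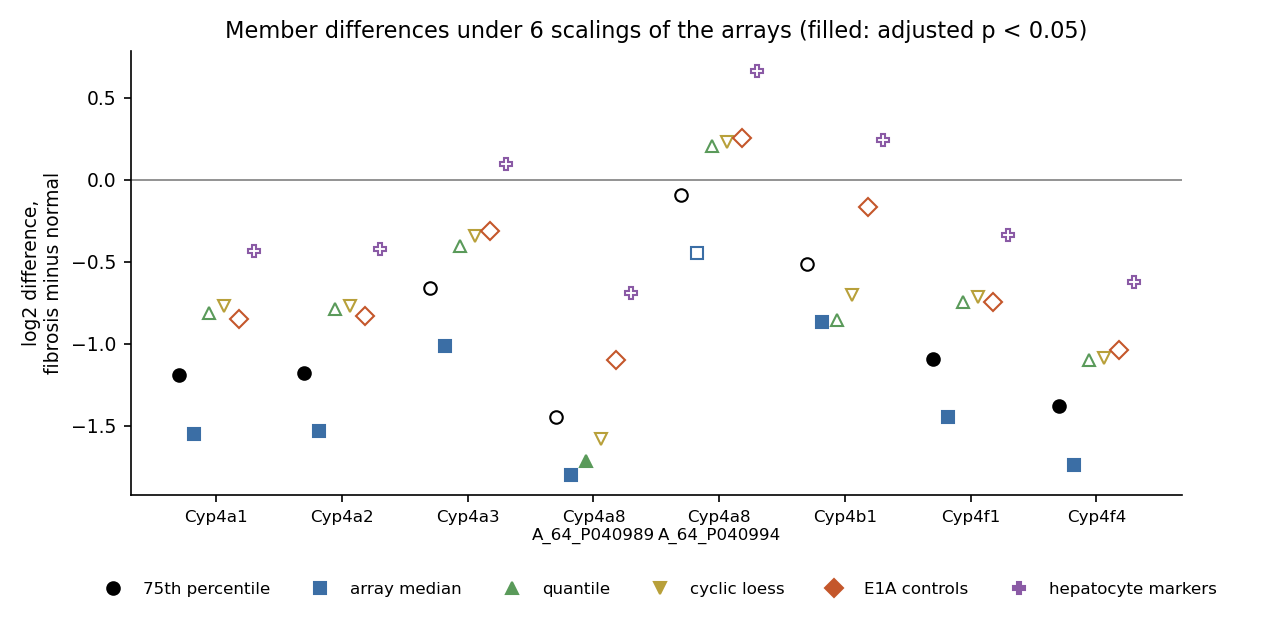
Log2 difference, fibrosis minus normal (y axis), of each member probe under 6 ways of scaling the arrays; filled markers passed limma at an adjusted p under 0.05. The differences of Cyp4a1, Cyp4a2, Cyp4f1 and Cyp4f4 lie below 0 in all 6 and pass with the 75th percentile and the array median only.

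The members were also set against the mean of 12 hepatocyte markers on the same array. These markers, secreted proteins and hepatocyte factors such as Alb and Ttr, had a mean level between 3.35 and 3.59 on normal and between 2.62 and 2.85 on fibrosis arrays, and 1 of the 12 (Apoc3) passed as lower. That share, 8.33%, was near the 7.62% of all genes, so this count is no result about the markers. At an unadjusted p under 0.05, 7 of the 12 were lower in limma. All fibrosis arrays lay below all normal arrays for 9 of the 12, against 20.9% of all genes, and the median difference was -0.73. The difference relative to them was -0.44 for Cyp4a1, -0.42 for Cyp4a2, -0.34 for Cyp4f1 and -0.62 for Cyp4f4. The fall of the marker mean, from 3.50 in normal to 2.74 in fibrotic liver, was taken out of every probe alike. For these 4 the difference was therefore smaller in size than without the markers. It was 0.10 for Cyp4a3, 0.24 for Cyp4b1, -0.69 for Cyp4a8 by probe A_64_P040989 and 0.66 by probe A_64_P040994, the last larger in size than the -0.09 without the markers. Groups did not overlap for Cyp4a2 alone among the 8 probes (exact two-sided permutation p = 0.10, the smallest possible). The part of the markers in the changes of the members was not tested further.

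Among 7 other CYP4 genes on the array, 6 were tested. Cyp4f5 stood apart, with -2.92, -3.13 and -3.42 on normal and 0.79, 1.24 and 1.44 on fibrosis arrays. The groups lay far apart, with a rise of 4.31 ± 0.27 (SE, 95% confidence interval 3.69 to 4.94, limma adjusted p = 6.02e-05), or 19.8-fold, and it passed under each alternative run (3.94 to 5.06). Cyp4f40 fell, from -1.31, -0.81 and -0.32 on normal to -2.05, -2.62 and -2.38 on fibrosis arrays (-1.54 ± 0.31, limma adjusted p = 0.0116), a call lost with E1A control probes (0.0914), hepatocyte markers (0.0832), the slide row as a block (0.186) or without normal array 3 (0.0568). Cyp4v3, an omega-hydroxylase of medium-chain fatty acids, fell with both of its probes, with differences of -1.14 ± 0.25 (limma adjusted p = 0.0161) and -1.90 ± 0.28 (0.00280). The first of these lost its call with quantiles (0.0527), cyclic loess (0.0539), E1A control probes (0.129), hepatocyte markers (0.261), the slide row as a block (0.178), or without normal array 2 (0.0812) or 3 (0.0700). Cyp4f6 (-0.84, adjusted p = 0.153), Cyp4f17 (0.47, 0.289) and Cyp4f18 (-0.03, 0.971) did not pass. No array had Cyp4x1 well above background.

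In the order of the RefSeq table, Cyp4a8, Cyp4a2, Cyp4a2l1, Cyp4a3, Cyp4a1 and Cyp4b1 follow each other on chromosome 5 with 0 other protein-coding genes between them. On chromosome 7 the order is Cyp4f39, Cyp4f17, Cyp4f5, Cyp4f37, then 1 other protein-coding gene, Cyp4f40, Cyp4f4, then 5 others, Cyp4f1 and Cyp4f6. Cyp4f5, which rose, thus has Cyp4f17 (0.47) on one side, and the genes that fell, Cyp4f40, Cyp4f4 and Cyp4f1, all lie on the other side. No probe was matched by accession to Cyp4f37 or Cyp4f39.

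**Figure D3:**
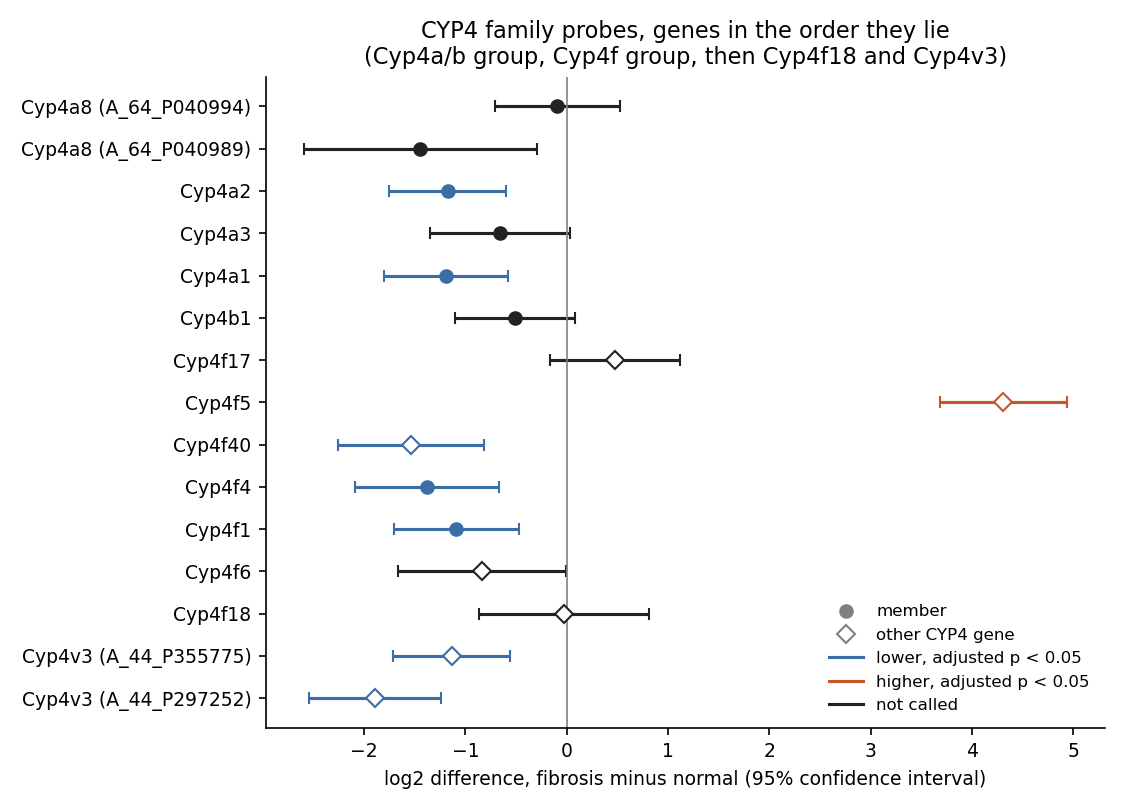
Log2 difference, fibrosis minus normal (x axis, with 95% confidence intervals), of the 15 tested CYP4 probes, listed in the order in which the genes lie on chromosome 5, on chromosome 7 and then Cyp4f18 and Cyp4v3. Filled circles are members and open diamonds other CYP4 genes, and Cyp4f5 at 4.31 is the only probe called higher.

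Genes of the steps after omega-hydroxylation were also lower. Of 18 tested genes of omega-oxidation and dicarboxylic acid breakdown, 11 fell and 0 rose (limma, 14 and 0 at an unadjusted p under 0.05), against 7.62% and 14.7% of all genes tested, and the median difference was -1.04 against -0.07 over all genes. Adh7, an alcohol dehydrogenase, fell by 3.06 (SE 0.25, adjusted p = 0.000145), from between 0.78 and 1.15 to between -2.32 and -1.88. Ehhadh, the peroxisomal bifunctional enzyme that shortens dicarboxylic acids, fell by 3.04 (SE 0.62, adjusted p = 0.0117) and stood at 1.35, -1.45 and 0.32 on the fibrosis arrays. Aldh3a2, the fatty aldehyde dehydrogenase of this route, stood at -1.18 (0.0158). The 11 falls became 4 with quantile normalization or cyclic loess, 3 with E1A control probes or hepatocyte markers and 15 with the array median. They became 2 with the slide row as a block, 1 of 7 tested with marked spots left out, and 7, 4 and 5 without normal array 1, 2 and 3.

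Of 32 PPAR-alpha target genes, CYP4A genes left out, 20 fell and 0 rose (limma, 30 and 0 at an unadjusted p under 0.05), at a median of -1.01. Beside Ehhadh, Ephx2, the soluble epoxide hydrolase, fell by 3.04 (SE 0.61, adjusted p = 0.0110), and was well above background on 2 of the 3 fibrosis arrays. Cd36 (-0.09) and Acot1 (-0.36) did not pass. Fibrosis and normal arrays did not overlap for 29 of the 32 genes, against 20.9% of all genes with fibrosis below and 22.1% with fibrosis above normal. The 20 falls became 11 with quantile normalization or cyclic loess, 4 with E1A control probes or hepatocyte markers and 30 with the array median. They became 2 with the slide row as a block, 4 of 12 tested with marked spots left out, 13 without a filter on dim probes, and 9, 8 and 8 without normal array 1, 2 and 3. The list shares 5 genes, Ehhadh and Ephx2 among them, with the other lists described here.

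Few regulators passed. Of 12 tested transcription factors and cofactors that act on CYP4 genes, 2 fell (16.7%) and 1 rose (8.33%), against 7.62% and 14.7% of all genes, so these counts of 2 and 1 are no result about the list. At an unadjusted p under 0.05, 3 were lower and 1 higher (limma), and the median difference was -0.77 against -0.07 over all genes. Ppara itself measured -4.09, -3.86 and -3.66 on normal and -4.85, -4.99 and -4.99 on fibrosis arrays (-1.07 ± 0.23, limma adjusted p = 0.0150), without overlap. Leaving out normal array 2 (0.0680) or 3 (0.0911) ended this call, as did scaling by E1A control probes (-0.73, 0.186) or hepatocyte markers (-0.32, 0.343) and the slide row as a block (0.173). Cebpa, a factor of hepatocyte differentiation, changed by -1.88 ± 0.27 (0.00222). Ppargc1a, a coactivator of PPAR-alpha, rose 2.83-fold (95% confidence interval 0.78 to 2.22 on the log2 scale, limma adjusted p = 0.0130). It did not pass with normexp background correction (0.74, 0.0565), without normal array 3 (0.0524) or with the slide row as a block (0.156). Rxra, the partner of PPAR-alpha, stood at -0.76 (0.168).

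Of 13 genes of electron supply and heme synthesis, 1 fell and 0 rose (limma, 4 and 0 at an unadjusted p under 0.05), and the median was -0.49. The share that fell, 7.69%, was near the 7.62% of all genes. The gene that fell was Por, the reductase that supplies electrons to all microsomal P450 enzymes, at -1.15 ± 0.27 (adjusted p = 0.0196). Por lost its call with E1A control probes (-0.81, 0.159), with hepatocyte markers (-0.40, 0.347) and without normal array 1 (0.0780), normal array 3 (0.0974) or fibrosis array 1 (0.0614), and with the slide row as a block (0.124). Among 14 tested genes of eicosanoid formation and turnover, 4 fell (28.6%, against 7.62% of all genes) and 2 rose (14.3%, near the 14.7% of all genes), at a median of 0.00. The falls were those of Ephx2, Cyp2j3, Cyp2c23 and Cyp2j4 (-1.28 ± 0.23, adjusted p = 0.00698), enzymes of the epoxide route, and the rises those of Pla2g4a, the phospholipase that frees arachidonic acid (1.28 ± 0.31, 0.0220), and Alox5ap, the partner of arachidonate lipoxygenase (1.00 ± 0.29, 0.0464). The call of Alox5ap was lost with the array median (0.64, 0.116), quantile normalization (0.84, 0.0860), cyclic loess (0.95, 0.0648), normexp (0.84, 0.0617), no filter on dim probes (0.0946), the slide row as a block (0.131) and without any 1 of the arrays other than fibrosis array 3. That of Pla2g4a was lost without normal array 1 (0.0806) or 3 (0.0789) or fibrosis array 1 (0.0692) and with the slide row as a block (0.0719), and that of Cyp2j4 with E1A control probes (-0.94, 0.109), hepatocyte markers (-0.53, 0.151) and the slide row (0.131). With the slide row as a block Ehhadh (-1.77, 0.201) and Ephx2 (-2.57, 0.176) did not pass either.

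**Figure D4:**
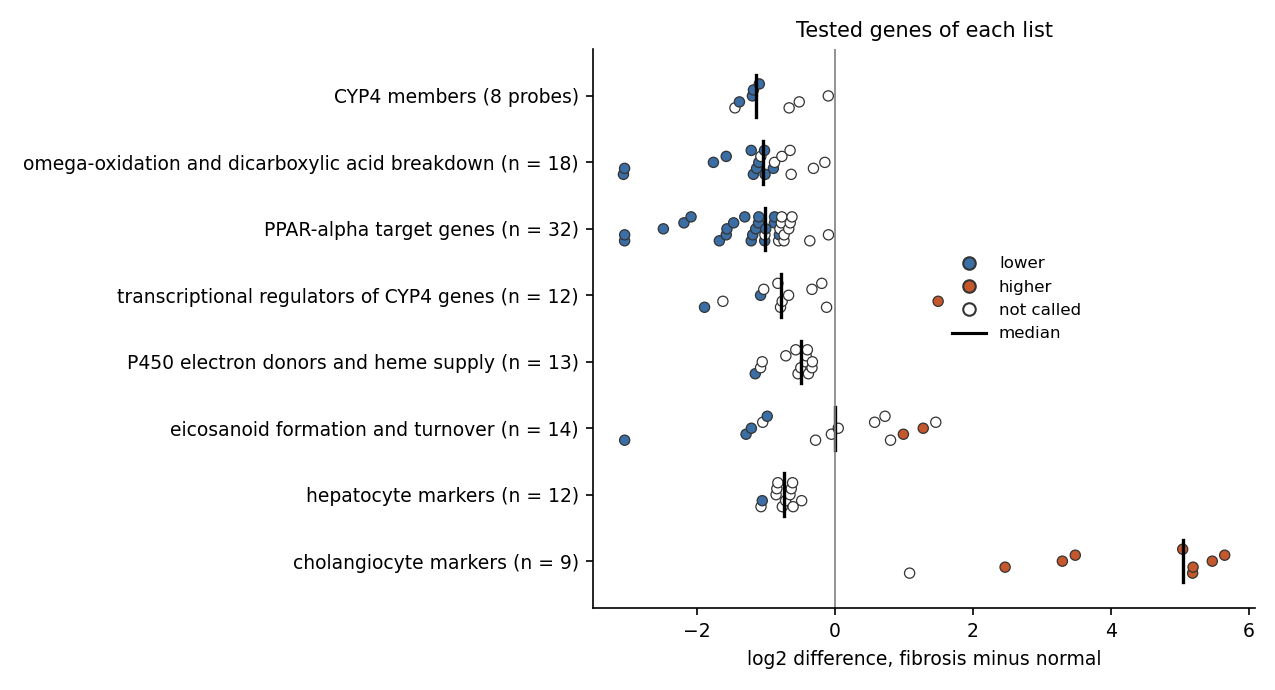
Log2 difference, fibrosis minus normal (x axis), of each tested gene in 7 lists and of the 8 member probes; each point is a gene by its brightest probe (for members a probe), blue lower, red higher, white not called, and bars are medians. The omega-oxidation and PPAR-alpha lists centre at -1.04 and -1.01, and the 8 member probes, called or not, lie between -1.44 and -0.09.

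Transcripts that mark other cell types, and pericentral and periportal hepatocytes, were also read. Of all genes tested, 14.7% were called higher and 7.62% lower. Cholangiocyte markers, genes of the bile duct lining, rose in 8 of 9 tested genes, and their mean level went from between -4.11 and -3.79 on normal to between -0.06 and 0.37 on fibrosis arrays. Stellate cell and myofibroblast markers rose in 6 of 9 genes (mean level -2.15 to -1.63 against -0.29 to 0.65), and macrophage and neutrophil markers in 4 of 11 (-1.91 to -1.26 against -0.89 to 0.05). Pericentral hepatocyte markers fell in 4 of 10 genes (0.11 to 0.29 against -0.35 to -0.22) and periportal ones in 3 of 11 (2.22 to 2.77 against 1.91 to 2.07), with 0 rising in either (limma, 2 and 0 higher at an unadjusted p under 0.05). None of 5 endothelial and 2 lung or kidney markers passed (limma, 1 lower in each list at an unadjusted p under 0.05), and 6 further lung and kidney markers, among them Sftpc and Umod, were not well above background on all arrays of a group. The part of these shifts in the values of the members was not tested.

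Genes whose profile over the 6 arrays lay closest to a member were found among 9830 genes well above background on all arrays, as the smallest root mean square difference of log2 values centred on each gene's mean. For Cyp4a1 these were Eci1 (0.09) and Hsd17b4 (0.10), and for Cyp4a2 Mlx (0.04) and Tfb2m (0.07). Cyp4f1 lay closest to Pink1 (0.05) and Nt5e (0.06) and Cyp4f4 to Vnn3 (0.03) and Sfxn5 (0.09). The nearest profiles of Cyp4a3 were Fh (0.06) and Mpc1 (0.07), and those of Cyp4b1 were Adap2 and Tmem11 (0.06 each). For Cyp4a8 they were Eif3l (0.07) and Elovl1 (0.08) by probe A_64_P040994, and Xkr9 (0.36) and Stard5 (0.37) by probe A_64_P040989. The median distance over all genes was between 0.47 and 1.00. Cyp4a8 by probe A_64_P040989 had both the largest median distance, 1.00, and the largest distance to its nearest genes.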

How the data were processed

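Liver RNA of 6 rats was measured on 6 arrays on 1 slide. The deposited files hold Agilent's processed signal, an intensity per spot on a linear scale from Feature Extraction 11.5.1.1. Background subtraction and detrending within each array are recorded in the statistics block, per the file headers, and a normalization between arrays is not. Probes were named by matching accessions without versions to the RefSeq table of GRCr8 (18355 of 30367 probes, 15443 genes).

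From these, log2 processed signals minus each array's 75th percentile were averaged over the spots of a probe, with control spots left out and spots marked as non-uniform or outlying kept. Testing required a share of 0.5 or more of a probe's spots well above background on every array of 1 group or both. The comparison used lmFit and eBayes of limma 3.58.1 in R 4.3.3, tested on simulated data, with Benjamini-Hochberg adjustment over all tested probes and a threshold of 0.05. A gene in a list was represented by its tested probe of highest mean. Confidence intervals are limma's at 95%.

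Members and lists were chosen with earlier results of these data known. Named genes were all members and listed CYP4 genes, Ppara, up to 2 called genes per list and direction with the largest change, and the 2 nearest profiles per member. Other genes named from the lists were chosen after their values were seen, as were the E1A (8 control probes) and hepatocyte marker scalings. Alternatives were quantile, array median and cyclic loess scaling, normexp (offset 50) on median signals, other filters and probe rules, trend and robust settings, array weights, the slide row as a block, marked spots left out, and each array left out. No probe was matched by accession to Srebf1, Med1, Cyp2u1, Cyp4f37 or Cyp4f39, nor to the markers Sox9, Mpo, Vwf, Stab2 and Clec4g. Whether any of the 12012 probes without a gene name reads them was not examined. Adh1 of the list is Adh1c in the table.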

Additional observations from a re-analysis of the deposited data

How the results depend on the processing

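Members are counted here by their brightest probe, A_64_P040994 for Cyp4a8. Of the 7 members, the 4 called lower became 0 with quantile normalization, cyclic loess, E1A control probes, hepatocyte markers or the slide row as a block. They became 1 of 3 tested with marked spots left out, where Cyp4a1, Cyp4a2, Cyp4a3 and Cyp4f1 kept too few unmarked spots to be tested, and between 0 and 4 when 1 array was left out. Over all probes, 1339 lower became 3884 with the array median, 3580 with array weights, 799 without a filter, 610 with marked spots left out, 326 with E1A control probes, 294 with hepatocyte markers and 178 with the slide row as a block, and 450 to 1620 with 1 array left out. The 2439 higher became 6394 with hepatocyte markers and 1020 with the slide row, and 1514 to 2851 with 1 array left out. Of 90 genes in the pathway lists, 35 lower became 61 with array weights, 59 with the array median, 19 with quantile normalization or cyclic loess, 8 with marked spots left out, 7 with E1A control probes or hepatocyte markers and 5 with the slide row, and 13 to 45 with 1 array left out. The 4 higher became 9 with hepatocyte markers, 7 with array weights, 2 with normexp and 1 with the slide row, and 1 to 5 with 1 array left out. Sign changes occurred only in differences that were not called. Cyp4a8 by probe A_64_P040994 turned to 0.21 (quantile), 0.23 (cyclic loess), 0.25 (E1A), 0.66 (hepatocyte markers), and lay between -0.27 and 0.050 with 1 array left out. Cyp4a3 turned to 0.10 and Cyp4b1 to 0.24 with hepatocyte markers. Cyp4f18 turned to 0.32 (E1A), 0.73 (hepatocyte markers), 0.25 (array weights), 0.31 (slide row), and lay between -0.26 and 0.37 with 1 array left out. The cause was not tested, except that fewer probes or arrays were available where some were left out. The 2 rules on probes of a gene give no count over all probes. No paired analysis was possible because the labels number the rats in 1 series and the groups share fewer than 2 numbers.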
